A study of Mus musculus with 8 samples.

Results

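The 10 genes described here are the lineage factors of the mammary epithelium and the receptors and signal transducer that act with them: Trp63, Elf5, Ehf, Elf3, Gata3, Foxa1, Esr1, Pgr, Prlr and Stat5a. They were chosen by name, and 23 of the 56555 probes measured carry one of those names. Of the 20265 genes that were bright enough to test, 9 were members, and Pgr was not. The arrays hold total RNA of cells sorted from mammary tumours of mice bitransgenic for sSHIP and C(3)1 Tag. In the Tag transgene the C3(1) promoter, active in mammary epithelium, drives the large T antigen of SV40, an inhibitor of the p53 and retinoblastoma proteins. In the sSHIP transgene GFP is driven by a promoter that lies within Inpp5d. Both groups carry both transgenes and neither is normal tissue or untransformed epithelium. One group is lineage-negative, CD49f-positive, GFP-positive cells, the other the same gate without GFP, with 4 arrays each. Both groups have the title numbers 566, 567, 573 and 631, each taken here to mark 1 tumour. Strain, age and the lineage antibodies are not given in the sources used here, and the labels do not say that the numbers are separate animals, so p-values may measure technical spread alone.

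In the mammary gland p63, the protein of Trp63, maintains the basal layer. ELF5 and EHF, ETS-domain factors, act in luminal progenitors and alveolar cells, ELF5 downstream of the prolactin receptor and STAT5. GATA3, FOXA1 and the estrogen receptor act together in hormone-sensing luminal cells, where the progesterone receptor is a target of the estrogen receptor. Tumours of the C3(1)-Tag mouse are widely used as a model of basal-like breast cancer, in which the estrogen and progesterone receptors are low.

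A level is the log2 of a probe's intensity minus the log2 of that array's 75th percentile, so that 0 is that percentile, and levels of different probes are not compared. A difference is GFP-positive minus GFP-negative. Trp63, Gata3 and Stat5a were well above background on every array, and by its brighter probe, though not by its second, Trp63 had nearly the same level in all of them. By the probes used, Elf5, Ehf, Elf3, Foxa1 and Prlr were more than 10-fold lower in GFP-negative than in GFP-positive cells of 631. In the pairs of 566, 567 and 573 these genes differed by at most 1.30 on the log2 scale. A second Prlr probe differed by only 0.85 in 631. Esr1 passed the filter by 1 dim probe of 6, and Pgr by neither of 2. None of the 9 members passed the test between populations, in which 0% of all genes were called.

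Promoter windows are shown for luminal factors at least 8-fold lower in the GFP-negative cells of 631 that have an entry in the RefSeq promoter table of GRCm38.p6. Gata3 stands beside them as a luminal factor that differed little there. Esr1, 2.68-fold lower, and Prlr, a receptor and not a factor, have entries but are not shown. Each run is the 250 bases before an annotated start, 5′ to 3′ on the gene's strand. Capitals mark a match, on either strand, to the ETS core GGAAG or the forkhead motif TGTTTAC.
Elf5 first start (chr2:103411848-103412097, plus strand): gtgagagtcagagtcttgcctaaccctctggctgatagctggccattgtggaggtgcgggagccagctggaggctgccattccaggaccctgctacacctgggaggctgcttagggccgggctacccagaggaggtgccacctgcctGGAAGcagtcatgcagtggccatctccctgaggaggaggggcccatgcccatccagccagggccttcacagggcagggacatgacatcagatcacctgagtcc
Elf5 second start (chr2:103423818-103424067, plus strand): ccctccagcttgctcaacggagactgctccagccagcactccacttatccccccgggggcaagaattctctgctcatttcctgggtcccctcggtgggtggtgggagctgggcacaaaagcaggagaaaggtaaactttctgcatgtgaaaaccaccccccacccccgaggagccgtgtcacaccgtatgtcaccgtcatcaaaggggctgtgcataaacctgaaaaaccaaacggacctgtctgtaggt
Elf3 (chr1:135258473-135258722, minus strand): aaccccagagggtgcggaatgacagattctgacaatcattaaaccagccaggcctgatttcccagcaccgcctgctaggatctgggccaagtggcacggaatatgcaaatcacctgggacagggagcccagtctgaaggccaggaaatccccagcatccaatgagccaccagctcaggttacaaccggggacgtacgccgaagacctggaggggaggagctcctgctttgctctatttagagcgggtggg
Foxa1 (chr12:57546112-57546361, minus strand): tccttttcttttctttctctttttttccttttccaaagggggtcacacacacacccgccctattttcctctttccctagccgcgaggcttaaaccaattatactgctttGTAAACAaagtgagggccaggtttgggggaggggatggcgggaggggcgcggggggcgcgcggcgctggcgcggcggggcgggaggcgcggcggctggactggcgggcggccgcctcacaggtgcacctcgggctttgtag
Gata3 (chr2:9878601-9878850, minus strand): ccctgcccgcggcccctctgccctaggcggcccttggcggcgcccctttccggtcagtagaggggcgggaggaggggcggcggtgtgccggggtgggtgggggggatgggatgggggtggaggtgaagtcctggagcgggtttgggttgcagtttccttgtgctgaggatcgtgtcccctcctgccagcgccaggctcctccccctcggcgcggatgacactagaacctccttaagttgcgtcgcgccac
The first Elf5 window holds 1 ETS match, and the Foxa1 window 1 forkhead match. The second Elf5 window and those of Elf3 and Gata3 hold neither. Motifs of GATA factors (AGATAA), of STAT factors (TTCNNNGAA) and the palindromic estrogen response element, searched on both strands, had no match in these 5 windows. Among windows not shown, the second of Esr1 and the second of Prlr each held 1 STAT match. The ETS core can overlap the STAT motif in part. Among all 32817 windows of this length the ETS core occurs in 64.1%, the GATA motif in 9.99%, the forkhead motif in 3.16%, the STAT motif in 7.01% and the estrogen response element in 0.064%. A match is a description of letters and not of binding. The table matched 8 of the 10 members, and Trp63 and Ehf were not among them. Ehf and Elf5 are neighbours on chromosome 2, with 0 protein-coding genes between them in the RefSeq table.

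The share of gene spots above background was 53.5% to 58.5% on 7 arrays and 34.1% in GFP-positive 573, where a signal had to reach 142 units to count as above background, against 13.4 to 23.5 elsewhere. The slide had the GFP-positive samples in 1 column and the GFP-negative samples in the other, so that population and column cannot be told apart. Of 15 pan-epithelial markers, each with a higher mean in GFP-positive cells (median difference 1.20; 0.34, 0.79, -0.10 and 3.78 in 566, 567, 573 and 631), 15 were well above background on 7 arrays and 13 on the GFP-negative array of 631. Their summed intensity, in units of the 75th percentile, was 356 to 628 in GFP-positive and 348 to 494 in GFP-negative cells. No array had a signal above background for Ptprc, which marks leukocytes. Pericyte genes summed to 45.2 to 60.5 in GFP-positive and 61.7 to 84.6 in GFP-negative cells, and 9 of 10 had a lower mean in GFP-positive cells. Macrophage genes summed to 5.78 to 10.9 and 8.96 to 14.7, with 6 of 6 tested genes lower in GFP-positive cells. Fibroblast genes summed to 15.0 to 231 and 18.5 to 148, with 6 of 9 tested genes higher in GFP-positive cells. Endothelial genes summed to 2.69 to 39.4 and 2.62 to 7.26, with 5 of 5 higher. Adipocyte genes summed to 0.77 to 6.53 and 0.89 to 1.75, with 1 of 2 higher and without Adipoq or Plin1 above background. The other leukocyte genes brought that list to 1.35 to 3.32 and 1.92 to 2.29, with 2 of 2 lower. The part of these cells in the results below was not tested. In RNA of sorted bulk cells, fewer cells of a type and less RNA per cell cannot be told apart.

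**Figure D1:**
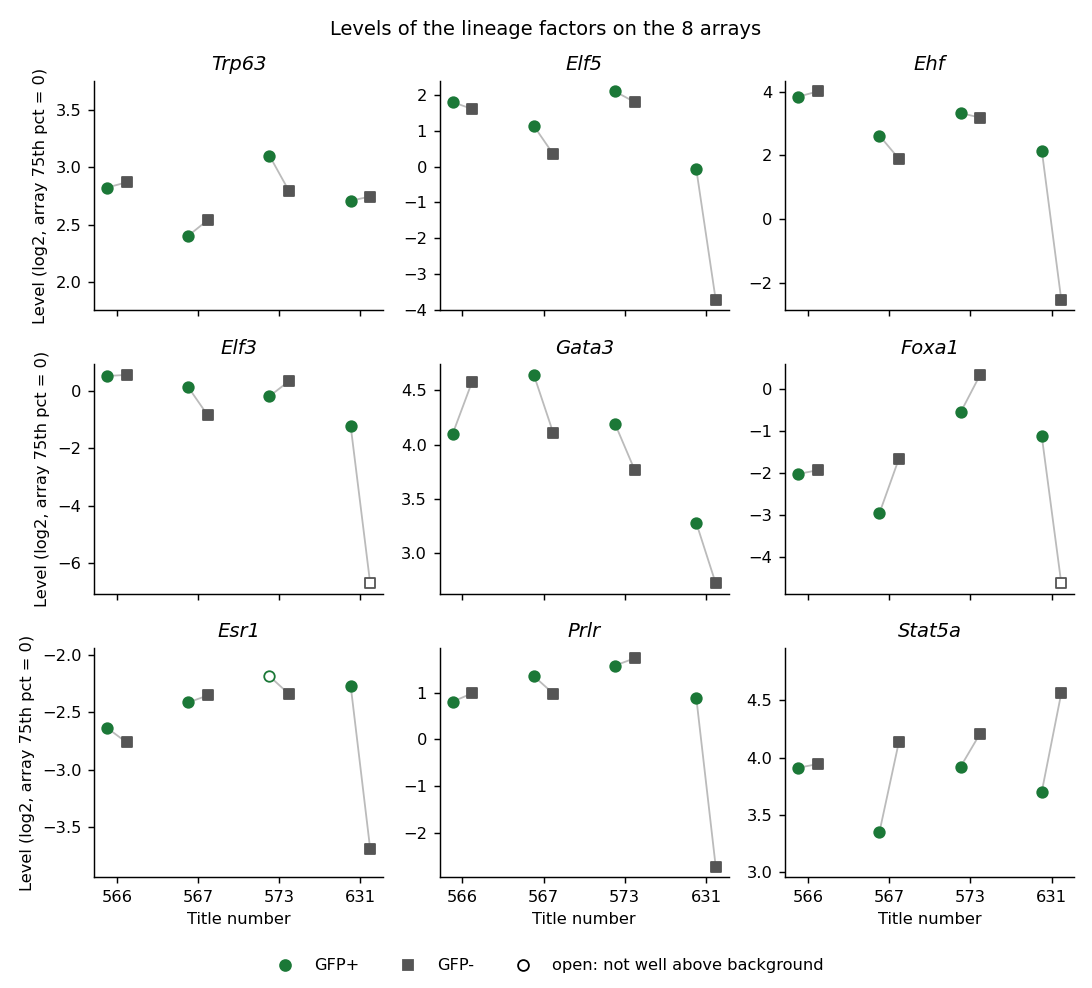
Level of each tested member (log2, the array's 75th percentile = 0) against title number, 1 panel per gene with its own scale; green circles are GFP-positive and grey squares GFP-negative arrays, a line joins the arrays of 1 number, and open symbols were not well above background. Elf5, Ehf, Elf3, Foxa1 and Prlr have their lowest point in the GFP-negative cells of 631, while Trp63 stays between 2.41 and 3.10.

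Trp63, the basal factor, had levels of 2.82, 2.41, 3.10 and 2.71 in the GFP-positive cells of 566, 567, 573 and 631, and 2.87, 2.54, 2.80 and 2.75 in the GFP-negative cells. The populations overlapped, and the 8 arrays spanned 0.70. Their SD of 0.21 lay at the 9.57th percentile of the SDs of all genes tested. The population means were 2.76 ± 0.29 and 2.74 ± 0.14 (SD, n = 4), a difference of 0.02 (SE 0.21; limma adjusted p = 1.00). The permutation test over the 70 splits, which ignores the pairing of arrays by number, gave p = 0.943, two-sided. Array weights (-0.011), median scaling (-0.079) and normexp (-0.012) turned the sign of this difference.

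A second Trp63 probe, annotated to another RefSeq transcript, read differently. Its levels in 566, 567, 573 and 631 were -1.32, -2.49, -3.41 and -0.69 in GFP-positive cells and -1.59, -3.37, -4.15 and -0.18 in GFP-negative cells. It was highest in both arrays of 631 and lowest in both of 573, where the GFP-positive spot was not well above background. Its mean level ranged over 3.34 between numbers, and in limma's moderated F test of the number it passed (adjusted p = 0.0086 over all genes), as did 28.8% of all genes, whereas the brighter probe ranged over 0.48 (adjusted p = 0.278). Which p63 isoforms either probe measures was not examined. Between populations the second probe differed by 0.35.

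Genes known as p63 targets are the other readout of the basal program. Of 17 such genes tested, 13 had a higher and 4 a lower mean in GFP-positive cells, and none passed the test between populations. Their median difference was 0.48, against -0.06 over all genes, and was 0.02, 0.65, -0.08 and 0.80 in 566, 567, 573 and 631. Krt5 and Krt14, the basal keratins, and Lama3, a laminin chain, were more than 8-fold lower in GFP-negative than in GFP-positive cells of 631, by 3.99, 4.26 and 4.36 on the log2 scale, as were 1.20% of all genes by 8-fold or more. Trp63 differed there by -0.04 by its brighter probe and by -0.51 by its second. Of the 17 target genes, 1 was not well above background on the GFP-negative array of 631, and it passed the filter through the GFP-positive arrays alone. Between numbers 7 of the 17 passed, against 28.8% of all genes: Itgb4, Itga3, Dst, Lamb3, Jag1, Sfn and Bnc1. Jag1, a Notch ligand, ranged over 2.94 (adjusted p = 0.0068), highest in 567 at 2.07 and lowest in 573 at -0.88. Among 6 other basal factors, Snai2 and Sox10 passed between numbers, a share near the 28.8% of all genes. Snai2 was highest in 631, at -0.49, against -2.52 to -2.34 elsewhere. Sox10 was lowest there, at 0.04 against 3.54 to 3.80, and in 631 it was 3.25 lower in GFP-negative cells.

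Elf5, the ETS factor of luminal progenitors and of the alveolar program, had levels of 1.79, 1.13, 2.09 and -0.07 in GFP-positive cells of 566, 567, 573 and 631, and 1.60, 0.34, 1.80 and -3.72 in GFP-negative cells. It was higher in the GFP-positive cells of all 4 numbers, by 0.19, 0.79, 0.29 and 3.65. Of all genes 3.39% were higher in all 4. The populations overlapped, and the mean difference of 1.23 (SE 1.15) did not pass (limma adjusted p = 1.00). The same permutation test gave p = 0.543, two-sided. Without the GFP-negative array of 631 the difference was -0.01.

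Ehf, the neighbour of Elf5 and an ETS factor of epithelia, was measured by 4 probes, of which 3 passed the filter. The brightest gave 3.84, 2.62, 3.32 and 2.15 in GFP-positive cells and 4.002, 1.89, 3.18 and -2.54 in GFP-negative cells. All arrays lay at 1.89 or above but the GFP-negative one of 631. The difference was 1.35 (SE 1.26; limma adjusted p = 1.00), higher in 3 of 4 numbers, and the other passing probes gave 1.42 and 1.37. Without the GFP-negative array of 631 it was -0.04.

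Elf3, another epithelial ETS factor, had levels of 0.51, 0.12, -0.19 and -1.23 in GFP-positive and 0.55, -0.86, 0.33 and -6.69 in GFP-negative cells. The last of these was not well above background. The difference was 1.47 (SE 1.45; limma adjusted p = 1.00), with the GFP-positive cells higher in 2 of 4 numbers. It rests on that dim spot: it was -0.21 without that array, and 0.11 with all arrays raised to a common floor, the highest of the 8 arrays' lowest signals well above background. On that floor the differences of Elf5, Ehf and Prlr were 0.62, 1.03 and 0.55. Over the 8 arrays Elf5, Ehf and Elf3 ran closely together. Pearson's r was 0.98 for Elf5 and Ehf, 0.97 for Elf5 and Elf3 and 0.98 for Ehf and Elf3. Without the GFP-negative array of 631 these were 0.85, 0.84 and 0.87 (7 arrays). The arrays share tumours in pairs, so these values are descriptions.

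Luminal progenitor genes had a median difference of 0.74 over 10 tested, 8 higher and 2 lower in GFP-positive cells, none past the test between populations. The median was 0.10, 0.41, -0.05 and 2.16 in 566, 567, 573 and 631. In 631, 5 of the 10 were more than 8-fold lower in GFP-negative cells, against 1.20% of all genes: Kit, the progenitor surface receptor, by 3.99, Aldh1a3 by 3.33, Lcn2 by 3.72, Bcl11a by 3.93 and Csn3 by 4.26. On that GFP-negative array 2 of the 10, Csn3 among them, were not well above background, so the size of such a difference is uncertain. These 2 passed the filter through the GFP-positive arrays alone, so the place of Csn3 in this count depends on the filter. Between numbers 5 of the 10 passed, against 28.8% of all genes: Lcn2, Id2, Nfib, Csn3 and Mfge8. Csn3, kappa-casein, had mean levels of 2.12 in 573 and 0.13 in 567, and of -3.20 in 631 and -3.53 in 566. Milk protein genes were tested for 2 of 7 members, and Lalba and Glycam1 differed by -0.52 (SE 0.53) and 1.12 (SE 1.30). Of 9 other ETS factors none passed between populations, and 6 passed between numbers, against 28.8% of all genes: Elf4, Spdef, Etv4, Etv5, Ets2 and Etv6, none of them 8-fold lower in the GFP-negative cells of 631.

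**Figure D2:**
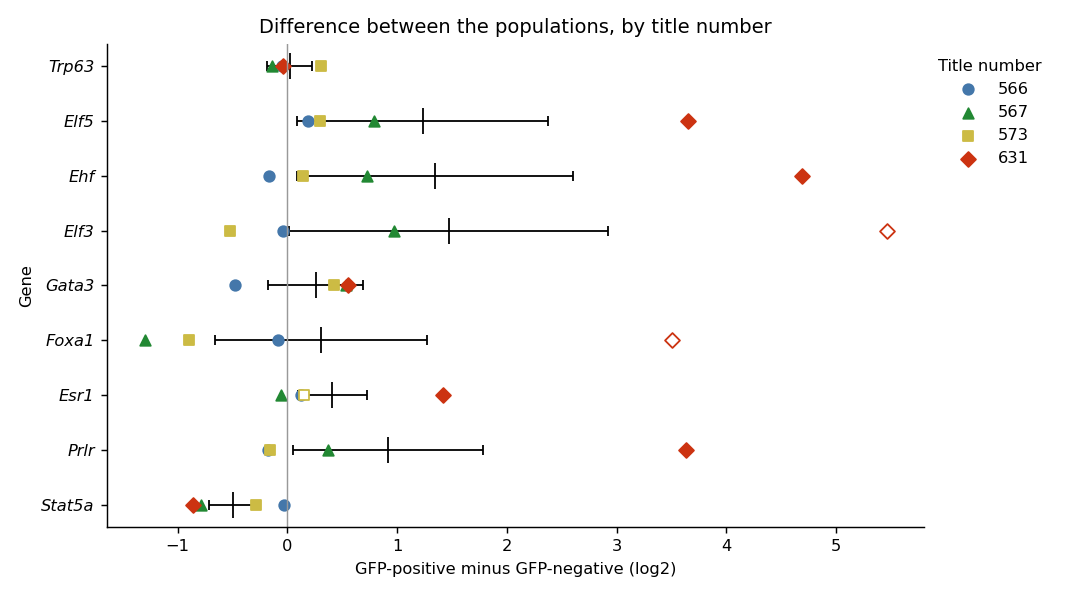
Difference of GFP-positive minus GFP-negative level (log2) for each tested member; coloured symbols are the 4 title numbers, the black tick is the mean difference and the bar is ± its SE from the limma fit over 8 arrays. Open symbols have a spot not well above background. The red diamonds of 631 stand at 3.51 to 4.69 for Elf5, Ehf, Foxa1 and Prlr, and the one of Elf3, at 5.46, stands for a difference of at least 3.42, while the symbols of the other numbers lie between -1.30 and 0.98 for these genes.

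Gata3, the factor that specifies and maintains luminal cells, had levels of 4.10, 4.64, 4.19 and 3.28 in GFP-positive cells of 566, 567, 573 and 631 and 4.58, 4.10, 3.77 and 2.72 in GFP-negative cells. Both arrays of 631 were the lowest of their population. The populations overlapped, with means of 4.05 ± 0.57 and 3.79 ± 0.79 (SD, n = 4) and a difference of 0.26 (SE 0.43; limma adjusted p = 1.00). GFP-positive cells were higher in 3 of 4 numbers. The sign turned with array weights (-0.02) and without the GFP-negative array of 631 (-0.10).

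Foxa1, the pioneer factor of estrogen receptor binding, had levels of -2.03, -2.96, -0.56 and -1.13 in GFP-positive and -1.94, -1.66, 0.34 and -4.64 in GFP-negative cells. It was lower in GFP-positive cells of 566, 567 and 573, by 0.09, 1.30 and 0.89, and higher in those of 631. The GFP-negative spot of 631 was not well above background. The mean difference of 0.31 (SE 0.97; limma adjusted p = 1.00) became -0.76 without number 631 and -0.19 with the common floor.

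Esr1, the estrogen receptor, was read by 6 probes, and 1 passed. Its levels were -2.63, -2.41, -2.18 and -2.27 in GFP-positive and -2.76, -2.35, -2.34 and -3.69 in GFP-negative cells, and the GFP-positive spot of 573 was not well above background. A difference of 0.41 (SE 0.32) did not pass (limma adjusted p = 1.00), and was 0.11 once GFP-negative 631 was left out and 0.07 once the pair of 631 was. With the common floor all 8 arrays lay at the floor. Of the other 5 probes 4 were above background on no array, and 1 was on the GFP-negative array of 631 alone. Pgr, the progesterone receptor, was read by 2 probes, above background on 1 array between them, the GFP-negative array of 573. No difference was tested for it.

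Genes of hormone-sensing cells and steroid response had a median difference of -0.12 over 10 tested, 3 higher and 7 lower, none past the test between populations. Between numbers 8 of the 10 passed, against 28.8% of all genes, among them Tbx3, Areg, Wnt4, Xbp1, Tfap2c, Spdef and Nrip1. Tbx3, a T-box factor of luminal cells, ranged over 7.03 (adjusted p = 0.0041), from 3.68 in 631 to -3.35 in 573. That lowest mean includes a spot not well above background, so the size of the range is uncertain. Signals well above background began at -1.28 in GFP-positive and -4.87 in GFP-negative 573. In GFP-positive 573, 3 of the 10 genes were not well above background. Areg, the estrogen-induced EGF receptor ligand, was highest in 567 at 4.61. Tfap2c was lowest in 631, at -1.35 against 1.91 to 3.22, and was 3.44 lower in its GFP-negative cells. Of 4 other GATA and FOXA factors and cofactors tested, Gata2 and Zfpm1 passed between numbers, against 28.8% of all genes. Gata2 ranged over 2.98, lowest in 573. Of 10 other nuclear receptors and coregulators 5 passed between numbers, against 28.8% of all genes, among them Esr2, Nr3c1, Rarg and Nrip1. Neither list had a member past the test between populations.

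Prlr, the prolactin receptor, had levels of 0.81, 1.36, 1.58 and 0.90 in GFP-positive cells of 566, 567, 573 and 631 and 0.99, 0.98, 1.74 and -2.73 in GFP-negative cells. All arrays lay between 0.81 and 1.74 but the GFP-negative one of 631. The difference was 0.92 (SE 0.86; limma adjusted p = 1.00), with 2 of 4 numbers higher, and -0.07 without that array. A second passing probe, dimmer, gave 0.39, and in 631 it differed by 0.85 where the brighter probe differed by 3.63. The third probe was above background on no array.

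Stat5a, the STAT factor that carries the prolactin signal, had levels of 3.91, 3.35, 3.92 and 3.70 in GFP-positive and 3.94, 4.14, 4.21 and 4.56 in GFP-negative cells. The highest GFP-positive array lay just below the lowest GFP-negative one, so the populations did not overlap. Groups did not overlap for 0.834% of all genes, 0.686% with GFP-positive cells lower and 0.148% with them higher. The means were 3.72 ± 0.27 and 4.21 ± 0.26 (SD, n = 4), and GFP-positive cells were lower in all 4 numbers, as were those for 10.8% of genes. The difference of -0.49 (SE 0.22) had an unadjusted p of 0.0528 and did not pass over all genes (limma adjusted p = 1.00). With the number as a block the unadjusted p was 0.0366 and the adjusted p 0.889. The permutation test, which ignores the pairing by number, gave p = 0.0286, two-sided, the smallest that 4 against 4 arrays can give. The other Stat5a probe did not show it: its levels were -0.32, 0.20, 0.88 and -0.75 in GFP-positive and 0.61, 0.35, 0.53 and -1.43 in GFP-negative cells, a difference of -0.01 with 2 of 4 numbers lower.

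**Figure D3:**
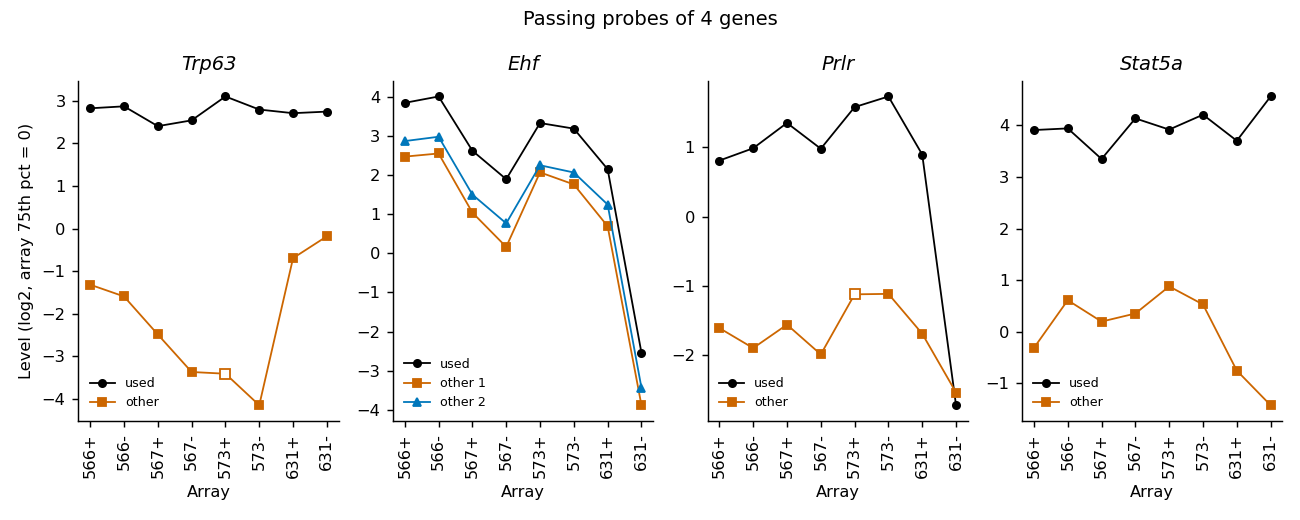
Level (log2, the array's 75th percentile = 0) of every passing probe of Trp63, Ehf, Prlr and Stat5a on the 8 arrays, + for GFP-positive and - for GFP-negative; black is the probe used, colours are other probes, and open symbols were not well above background. The Ehf probes run in parallel, while the second probes of Trp63, Prlr and Stat5a take another course, the Trp63 one ranging over 3.97.

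The other prolactin and STAT5 pathway genes gave 4 higher and 8 lower means among 12 tested, a median difference of -0.07, with none past the test between populations. Stat5b, the close relative of Stat5a, was lower in GFP-positive cells of all 4 numbers, by 0.40, 0.39, 0.24 and 0.09. Between numbers 7 of the 12 passed, against 28.8% of all genes: Jak1, Jak2, Stat6, Cish, Socs1, Socs2 and Ccnd1. Cish and Socs2, feedback genes induced by STAT5, were lowest in 631 at -1.12 and -2.07. Jak1, Socs1 and Ccnd1 were highest there, at 3.60, 1.24 and 3.33. Prl itself was above background on no array.

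In 631 the GFP-negative cells differed from the GFP-positive cells of the same number in the level of 5 members. This compares 1 array with 1 array and has no replicate check, and the 8-fold limit was chosen after the values were seen. Ehf was 25.8-fold, Elf5 12.6-fold and Prlr 12.4-fold lower. The second passing probe of Prlr differed there by only 0.85 on the log2 scale. Foxa1 was at least 11.4-fold and Elf3 at least 10.7-fold lower, where the GFP-negative spot is set at the lowest signal well above background on its array or, if higher, at its own signal. At least 8-fold lower levels were seen for 5 of the 9 members and for 1.20% of all genes. Of these 5, Elf3 and Foxa1 passed the filter through the GFP-positive arrays alone, so their place in this count depends on the filter. Esr1, next below the limit, was 2.68-fold lower. Gata3 was 1.47-fold lower and Stat5a 1.81-fold higher, and Trp63 differed by 1.03-fold. The second passing probe of Stat5a went the other way, with a difference of 0.67 on the log2 scale, and that of Trp63 gave -0.51. Quantile and median scaling and other percentiles left the same 5 members over 8-fold. With normexp, whose offset draws dim signals together, only Ehf was (3.82 on the log2 scale), beside Prlr at 2.61, Elf5 at 2.33, Elf3 at 1.91 and Foxa1 at 1.66, and the share of all genes was 0.252%. The median difference in 631 was 3.51 over the members, 3.42 with Elf3 at its bound, and -0.20 over all genes, and 90% of genes, between the 5th and 95th percentiles, lay from -0.74 to 0.99.

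Pan-epithelial markers moved with these members. Of 15, 10 were at least 8-fold lower in the GFP-negative cells of 631, against 1.20% of all genes. Among them were Epcam, by 16.0-fold, and Cdh1, E-cadherin, by 14.8-fold. Esrp2 and Ap1m2, also among the 10, passed the filter through the GFP-positive arrays alone, so their place in this count depends on the filter. Krt8 and Krt18, the keratins of simple epithelium, and Spint2, a protease inhibitor, differed there by 1.22-fold, 1.08-fold and 1.34-fold, and with other scalings the sign turned for Krt8 and Krt18. The mean level of the 15 markers was -0.91 on that array and 2.09 to 3.26 on the other 7. The mean differed between populations by 0.31, 0.78, -0.03 and 3.00 in 566, 567, 573 and 631. Set against that mean, which includes 2 markers not well above background on that array, the differences in 631 were 1.69 for Ehf, 0.65 for Elf5 and 0.63 for Prlr, and -1.58 for Esr1, -2.44 for Gata3, -3.04 for Trp63 and -3.86 for Stat5a. None is given for Elf3 and Foxa1, whose GFP-negative spots were dim. The part of epithelial content in these differences was not tested.

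**Figure D4:**
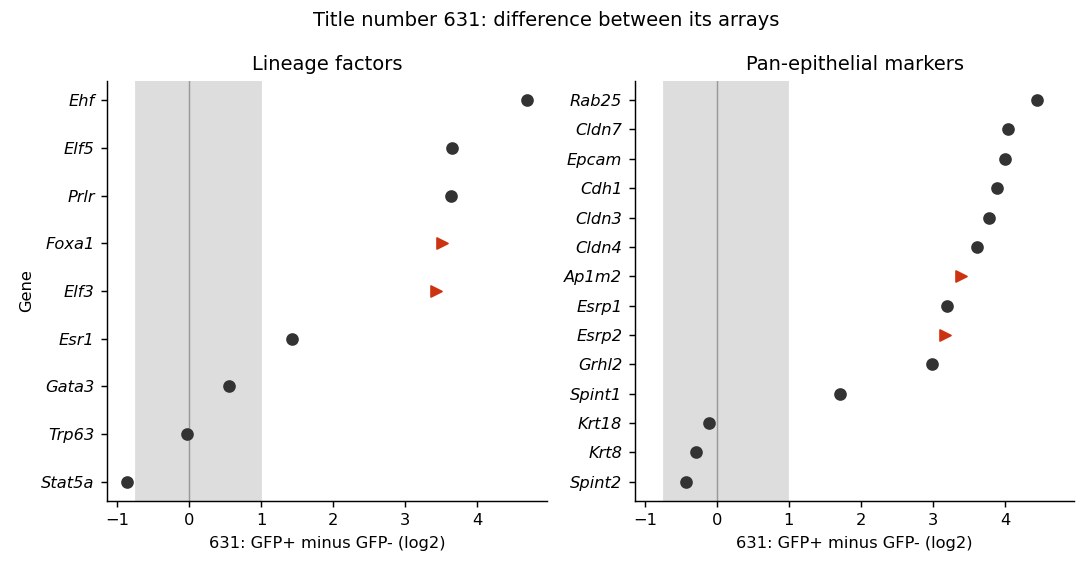
Difference of GFP-positive minus GFP-negative level in 631 (log2) for the 9 tested members (left) and 14 of the 15 pan-epithelial markers (right), ordered by size; red arrowheads are lower bounds where the GFP-negative spot was not well above background, and the grey band runs from the 5th to the 95th percentile of all 20265 genes, -0.74 to 0.99. Ehf, Elf5, Prlr, Foxa1 and Elf3 lie to the right with 11 of the 14 markers plotted, and Esr1, at 1.42, lies just right of the band, while Trp63 and Gata3 lie within the band and Stat5a just left of it.

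Between the 4 numbers, 28.8% of all genes passed limma's moderated F test, in which the population was a covariate, and 2 of the 9 members did, Elf5 and Gata3. A share of that size among members is near that of all genes. Elf5 had mean levels of 1.94 in 573, 1.70 in 566, 0.74 in 567 and -1.89 in 631, a range of 3.84 (adjusted p = 0.0418). The gaps from 573 to 566 to 567 were smaller than the residual SD of 1.16 and that to 631 was larger. Gata3 had 4.37 in 567, 4.34 in 566, 3.98 in 573 and 3.00 in 631, a range of 1.37 (adjusted p = 0.0426). Its first gap was below the residual SD of 0.35, the second, 0.36, about equal to it, and that to 631, 0.98, above it. Both calls lay near the threshold and were lost under several other settings, for example with quantile normalization (adjusted p = 0.0844 and 0.0962). The call of Elf5 was lost without any 1 array of 566 or 567 (adjusted p = 0.0796 to 0.0962). That of Gata3 was lost without any 1 array of 567 or 631 or the GFP-positive array of 573 (adjusted p = 0.0535 to 0.186). Over all settings tried except leaving out arrays, adjusted p ran from 3.5e-12 to 0.585 for Elf5 and from 0.018 to 0.562 for Gata3. Without number 631 Gata3 ranged over 0.39 (adjusted p = 0.506).

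The ranges of Elf3 (4.49, adjusted p = 0.108), Ehf (4.12, 0.0924), Foxa1 (2.78, 0.236), Prlr (2.58, 0.183), Esr1 (0.72, 0.385) and Stat5a (0.39, 0.565) did not pass in that F test. The range of Elf3 was 1.78 with the common floor. Leaving out 1 array of 631 leaves that number without a replicate, so ranges alone are given. Without its GFP-positive array they were 7.22 for Elf3, 6.46 for Ehf, 4.53 for Foxa1, 4.39 for Prlr and 1.43 for Esr1. Without its GFP-negative array Ehf and Foxa1 passed (adjusted p = 0.0332 and 0.0295). The median range was 2.58 over the members tested and 0.82 over all genes. In each of Elf5, Ehf, Elf3, Gata3, Foxa1, Esr1 and Prlr the number with the lowest mean was 631. Among the GFP-positive arrays alone, 631 was lowest for Elf5, Ehf, Elf3 and Gata3, but not for Foxa1, Esr1 and Prlr. With 1 number left out, 2805 to 4521 of all 20265 genes passed, depending on the number. Without number 631 in the fit, Ehf passed with a range of 1.67 (adjusted p = 0.0310), from 3.92 in 566 to 2.25 in 567. Foxa1 passed with 2.20 (adjusted p = 0.0225), highest in 573 at -0.11 and lowest in 567 at -2.31. Elf5 passed with 1.21 (adjusted p = 0.0397), highest in 573 and lowest in 567. So 567 held the lowest mean of these 3 genes among the remaining numbers.

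Genes whose levels ran most like those of each member over the 8 arrays were found among 12556 genes with a symbol, by Pearson's r, as a description. Trp63 was most like Lrrc51 (r = 0.98, Spearman's rho 0.90) and Zfp93 (0.98, 0.98). Elf5 was most like Sertad4 (1.00, 0.98) and Col9a3 (1.00, 0.98). Ehf was most like Ceacam2 (1.00, 0.98), a cell adhesion molecule, and Plekha7 (0.99, 0.98), a protein of adherens junctions. For Elf3 these were Cgn (1.00, 0.88), the tight junction protein cingulin, and Tmc4 (1.00, 1.00). For Gata3 they were Nucks1 (0.99, 0.95) and Stat3 (0.98, 0.90), and for Foxa1 Ccdc68 (0.97, 0.98) and Wfdc18 (0.95, 0.88). Esr1 ran with Klk5 (0.97, 0.83) and Myo5b (0.95, 0.76), Prlr with Dpysl5 (0.99, 0.90) and Acss1 (0.99, 0.90), and Stat5a with Cd4 (0.94, 0.93) and Kifbp (0.92, 0.76). Without the GFP-negative array of 631, on which Elf5, Ehf, Elf3, Gata3, Foxa1, Esr1 and Prlr had their lowest level, r was 0.99 for Sertad4, 0.99 for Ceacam2, 0.96 for Cgn, 0.97 for Nucks1, 0.94 for Ccdc68, 0.88 for Klk5, 0.64 for Myo5b and 0.89 for Dpysl5.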

How the data were processed

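Total RNA of 8 sorted samples was labelled with Cy3 and hybridised to 1 array each. Per the submitters' processing notes, and as the headers show, the deposited values are linear intensity from Agilent Feature Extraction 10.7.3.1, with background and spatial trend removed within each array but not normalized between arrays. The deposited series table held the same intensity in all 62976 spots of each array. Control and outlier spots were dropped and spots of a probe averaged; log2 intensity minus each array's 75th percentile over gene spots (344 to 580 units) is the level. A probe was kept where all 4 arrays of 1 population, or of both, measured it above background, and a gene's brightest such probe by mean was used. Array number limits the precision.

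Symbols come from accessions matched without versions to a RefSeq table of GRCm38.p6 (32969 of 56555 probes). The files hold no mean signal, so the normexp alternative (offset 50) used the median signal. Populations were compared with limma 3.58.1 (R 4.3.3) without a block, and title numbers by moderated F tests, with Benjamini-Hochberg adjustment over all 20265 genes at 0.05. Single values were also tested by permutation over all 70 splits of the arrays, which ignores their pairing by number. Deviations of same-numbered arrays correlated at 0.573 to 0.741 (at most 0.221 with other numbers), so the numbers pair the arrays. Scripts were tested on simulated data. Members, lists and tests were chosen with earlier results of these data known. Named are all members, list genes that passed a test or otherwise had the 2 smallest p, and the 2 genes most like each member; a few that the rule names are counted in their lists but not reported here.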

Additional observations from a re-analysis of the deposited data

Results flagged for a closer look

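Of 34 groups of 4 arrays examined, 1 was marked: the Prlr level of -2.73 in the GFP-negative cells of 631 stood apart from the other 3 GFP-negative arrays by 0.831 of the group's range, just past Dixon's critical value. Chance marks about 1 group in 20. The dimmer Prlr probe did not show a gap of that kind, at -2.55 against -1.99 to -1.12.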

How the results depend on the processing

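No member passed the test between populations under any alternative, and no gene did, with or without the replicate block (0 called), while 161 genes had an unadjusted p under 0.05 without the block, 1113 with it and 1005 with a random block. Blocking by number changed no call between populations. Leaving out 1 array or 1 number moved the differences from -0.043 to 2.14 for Ehf, -0.21 to 2.21 for Elf3, -0.0097 to 1.83 for Elf5, 0.074 to 0.57 for Esr1, -0.76 to 1.08 for Foxa1, -0.098 to 0.52 for Gata3, -0.074 to 1.41 for Prlr and -0.092 to 0.14 for Trp63; the negative ends of Ehf, Elf3, Elf5, Gata3 and Prlr are those without GFP-negative 631. Foxa1 was -0.076 with array weights, -0.19 with a common floor (the same with the replicate block), -0.58 without GFP-negative 631, -0.065 without GFP-positive 573 and -0.76 without both arrays of 631, with the replicate block as without it. Gata3 was -0.022 with array weights. Trp63 was -0.011 with array weights, -0.079 with median scaling, -0.012 with normexp, -0.025 with the percentile over probe means (added after the data were seen), -0.044 without GFP-negative 567, -0.092 without GFP-positive 573 and -0.073 without both arrays of 573, also with the replicate block. Relative to the pan-epithelial mean, Esr1 was -0.61, Foxa1 -0.71, Gata3 -0.76, Prlr -0.099 and Trp63 -0.99; that scaling moved the median of all genes by -1.02, and median scaling moved it by -0.10. Between numbers, the 5834 genes called became 880 at 0.01, 1503 with a common floor, 2451 with quantile normalization, 0 of 45586 without the filter on dim probes (7666 at an unadjusted p under 0.05) and 1649 to 5185 with 1 array or number left out (3032 and 2772 without the GFP-positive or GFP-negative sample of 566, 1649 and 1888 without those of 567, 3330 without GFP-negative 631). The 2 members called became 6 with median scaling, 4 with normexp, 1 with an intensity trend and robust variance or without the population covariate, 0 with quantile normalization, with the common floor, with the percentile over probes above background on all arrays, with the filter of 3 of 4 arrays, without a filter and at 0.01, and 0 to 6 with 1 array or number left out. Over the settings other than leaving out arrays, 0 to 7353 genes were called between numbers. Where the count of all genes under a setting is not given here, its count of members cannot be read against it. With median scaling limma gave all genes 1 common variance. For other changes the cause was not tested.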
